A study of Mus musculus with 16 samples.

Results

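The genes of CD40 and tumour necrosis factor (TNF) signalling described here were read from bulk RNA-seq of liver neutrophils: Cd40, Tnf, the TNF receptor genes Tnfrsf1a and Tnfrsf1b, the adapter genes Traf1, Traf2, Traf3, Traf5 and Traf6, and Tradd. They were chosen by symbol as the receptor that the treatment engages, the central cytokine of the pathway and its receptors. The adapters are used by CD40, by TNF receptors or by both. These are 10 of the 54532 gene identifiers in the count table, and all 10 were among the 9851 genes with enough counts to be tested. The libraries came from 8 mixed bone marrow chimeras on the C57BL/6 background, numbered 2 to 9, and each mouse gave 1 library per genotype. Ifngr1_KO libraries (n = 8) were made from CD45.2+ neutrophils that descend from Ifngr1-/- marrow, which lacks the ligand-binding chain of the interferon gamma (IFN-gamma) receptor. WT libraries (n = 8) were made from CD45.1+ neutrophils of wild-type marrow in the same animals. Both genotypes shared an irradiated wild-type host (about 1000 cGy), 8 weeks of reconstitution from equal parts of the marrows, a flank tumour of the colon carcinoma line MC38, and an agonist antibody against CD40 (aCD40) given 1 week after the tumour cells. Livers were taken 2 days after the antibody, and no library came from untreated mice, so the values compare genotypes under treatment and do not measure the response to the antibody. Marrow donor, CD45 allele and gate were the same as genotype throughout and cannot be told apart from the loss of the receptor. The CD45 type of the host is not given in the sources used here, and the part of host cells in either gate was not tested.

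CD40 is a receptor of the TNF receptor superfamily, best known on B cells, dendritic cells and macrophages, where its engagement by CD40 ligand or by an agonist antibody turns on cytokine and costimulatory genes. CD40 and TNF receptor 2 have no enzymatic activity and no death domain, and they recruit TRAF proteins through short motifs in their cytoplasmic tails. TNF receptor 1 carries a death domain that binds TRADD, which brings in TRAF2 and leads to NF-kB, MAP kinases or cell death. Neutrophils are a source of TNF and carry both of its receptors.

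The libraries held 12.5 to 16.9 M estimated counts in Ifngr1_KO and 13.1 to 21.7 M in WT (M stands for 1000000). Levels are given as CPM (counts per 1000000 in the library, after trimmed-mean scaling), and differences as log2 fold changes of Ifngr1_KO over WT from edgeR's quasi-likelihood test with mouse as a block, with p-values adjusted over all 9851 genes and called at an adjusted p under 0.05. The replicates are 8 separate mice. Ifngr1 itself averaged 83.9 ± 29.5 CPM in Ifngr1_KO and 305 ± 46.6 CPM in WT (SD, n = 8), with no overlap between genotypes. The source of the Ifngr1 counts left in Ifngr1_KO was not tested. The neutrophil genes S100a8, S100a9 and Ly6g were expressed in all 16 libraries, and none of 10 neutrophil markers was called. Of the 10, 7 had a negative log2 fold change and 2 an unadjusted p under 0.05 (Mmp8 at -0.42 and Mmp9 at -0.43, edgeR adjusted p = 0.0757 and 0.138), with a median of -0.22 and S100a8 the highest at 0.30. Over all tested genes, 4611 of 9851 had a negative log2 fold change. The values of Mmp8 and Mmp9 are as large as that of Tnf below, and their part in that difference was not tested. Mitochondrially encoded mRNA took 0.475 to 2.503% of counts in Ifngr1_KO and 0.294 to 1.19% in WT, and 6 of 8 mice had the higher share in Ifngr1_KO (two-sided exact permutation test by sign flips, p = 0.0313, adjusted p = 0.0313 over 2 library measures). The Ifngr1_KO library of mouse 7 had the highest share, 2.503%. It was also the lowest of its genotype for 5 of 10 members, as it was for 25.2% of all tested genes. The check for single distant libraries, given at the end, flagged this library for no member. Values without mouse 7 are given where they matter. The part of RNA quality in the differences below was not tested beyond a fit with this share as a covariate.

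Cd40 fell to 20.03% of its WT level, Tnf fell to 74.7%, and none of the adapter genes was called. Of the 10 members 2 were called lower (Cd40 and Tnf), 0 were called higher and 8 were not called, where 2.32% of all tested genes were called lower and 0.477% higher. An unadjusted p under 0.05 was found for 5 of the 10 (Cd40, Tnf, Tnfrsf1a, Tnfrsf1b and Traf2), where 16.3% of all tested genes had one. The 4 ligand and receptor genes Cd40, Tnf, Tnfrsf1a and Tnfrsf1b were lower in Ifngr1_KO in 8 of 8 mice, which held for 4.93% of all tested genes. The median log2 fold change of the 10 was -0.46, and that of all tested genes was 0.046. DESeq2 called Cd40, Tnf and Tnfrsf1b lower, and 5.92% of the genes it tested.

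**Figure D1:**
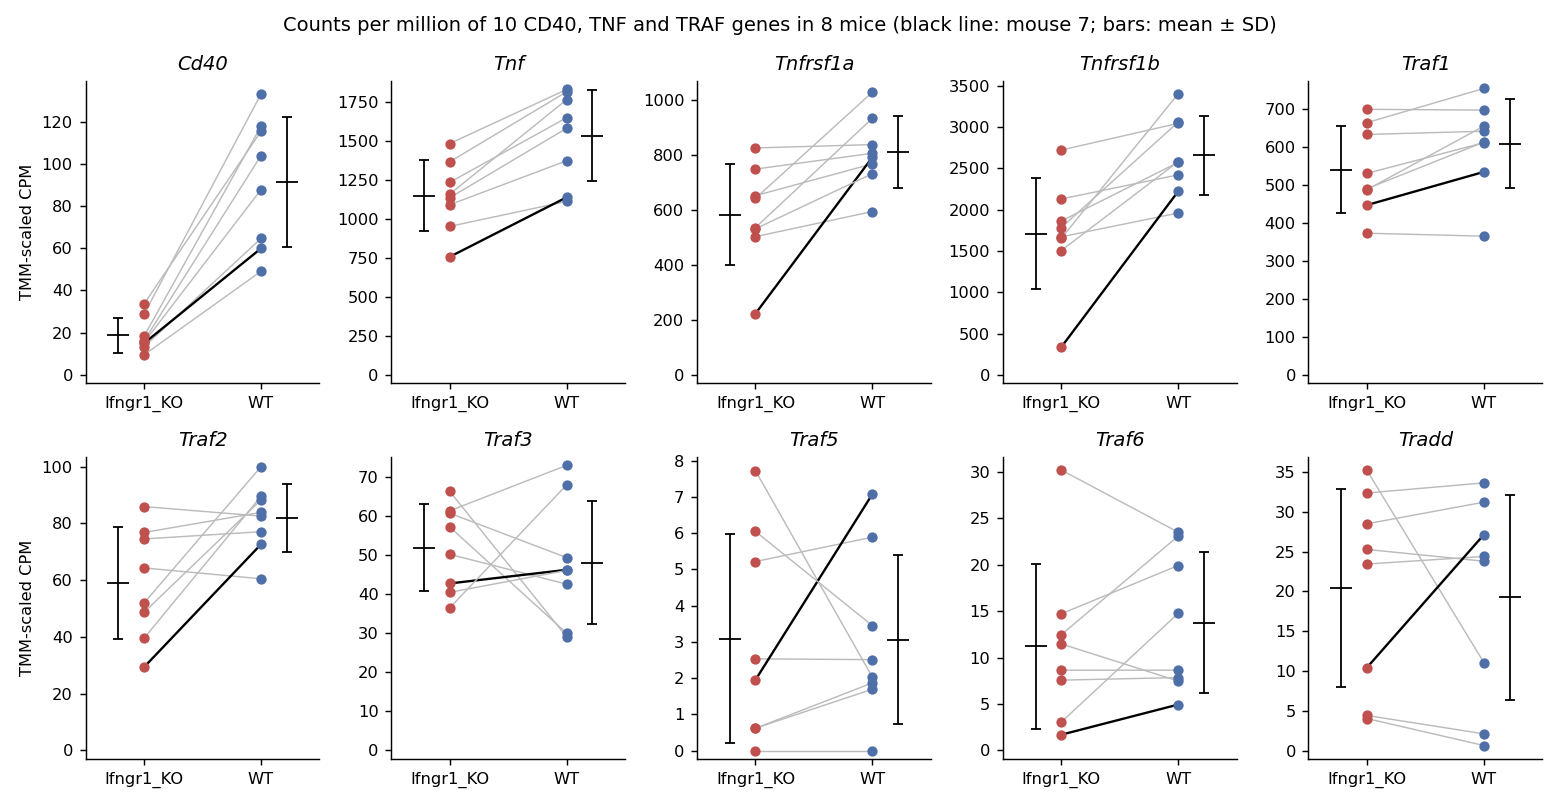
Level of each member gene in TMM-scaled CPM (y axes, from 0) in Ifngr1_KO and WT neutrophils. Each point is a library, each line joins the libraries of 1 mouse (black for mouse 7), and bars give the mean ± SD of 8. The Cd40 points of Ifngr1_KO lie between 9.43 and 33.6 CPM, below all WT points, while the other genes overlap.

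Cd40 (ENSMUSG00000017652, chromosome 2, 165055627 to 165072948, plus strand, mm10) encodes the receptor that the antibody binds. Its level had a lowest value of 9.43, a median of 15.7 and a highest value of 33.6 CPM over the 8 Ifngr1_KO libraries. The 8 WT libraries ran from 49.0 CPM through a median of 95.8 to 133 CPM. All 8 Ifngr1_KO libraries thus lay below all 8 WT libraries, as was the case for 1.48% of all tested genes. The log2 fold change was -2.32 (SE 0.15, 95% interval -2.64 to -1.999, adjusted p = 6.2e-06), so that Ifngr1_KO held 20.03% of the WT level (interval 16.04 to 25.02%).

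Every mouse showed the Cd40 difference. The Ifngr1_KO level was 15.5% of that of WT in mice 3 and 5, the lowest share, and 29.1% in mouse 9, the highest. In mouse 7 it was 24.9%, so this library did not stand apart for Cd40. Both genotypes varied between mice, with a coefficient of variation of 43.8% in Ifngr1_KO and 33.8% in WT. Cd40 was called in all 16 alternative fits, at log2 fold changes of -2.40 to -2.21. With the mitochondrial share as a covariate it was -2.38 (adjusted p = 0.00165). No Ifngr1_KO library was without Cd40 counts: the lowest held 166.

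CD40 is also expressed by B cells, dendritic cells and macrophages, and in bulk libraries fewer cells of such a type and less RNA per cell cannot be told apart. The summed level of 10 B cell markers was 20.5 to 69.8 CPM in Ifngr1_KO and 15.7 to 43.1 CPM in WT, and 0 of 6 tested were called. Among them Cd79a, a chain of the B cell receptor complex, averaged 4.78 ± 1.56 CPM in Ifngr1_KO and 5.24 ± 1.82 CPM in WT. The 8 dendritic cell markers summed to 15.0 to 55.7 CPM in Ifngr1_KO and 22.9 to 80.3 CPM in WT, most of it Cd83 (23.8 ± 14.6 CPM in Ifngr1_KO and 41.5 ± 17.8 CPM in WT, not called), which is not particular to dendritic cells, and Flt3 and Cd209a stayed under 1 CPM in all 16 libraries. The 9 macrophage and Kupffer cell markers summed to 39.1 to 82.7 CPM in Ifngr1_KO and 53.3 to 154 CPM in WT, most of it Adgre1. Adgre1, which encodes F4/80, was called lower (36.0 ± 14.5 CPM in Ifngr1_KO and 76.5 ± 25.8 CPM in WT, log2 fold change -1.11), while the Kupffer cell marker Vsig4 had no counts and Clec4f stayed under 1 CPM in all libraries. The 6 monocyte markers summed to 1471 to 2615 CPM in Ifngr1_KO and 2158 to 3409 CPM in WT, most of it Csf1r and Ly6c2. Ly6c2 was called lower (741 ± 194 CPM in Ifngr1_KO and 1212 ± 210 CPM in WT, log2 fold change -0.73). Csf1r was not called (1287 ± 426 and 1497 ± 192 CPM, log2 fold change -0.31). Of the 6, 4 had a negative log2 fold change, as had 4611 of all 9851 tested genes. Ccr2 averaged 1.38 CPM in Ifngr1_KO and 0.836 CPM in WT (log2 fold change 0.59). The part of Adgre1- or Ly6c2-expressing cells in the Cd40 difference was not tested.

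The coding stretch below, read from the GENCODE transcript Cd40-201, lies in the last coding exon and shows a site by which the CD40 tail holds TRAF proteins. It is not shown as the site of every TRAF protein named here. The second stretch is the corresponding site in the tail of TNF receptor 2, from Tnfrsf1b-201. Capitals mark the codons of the TRAF binding motif, which in CD40 reads proline, valine, glutamine, glutamate, threonine, and in TNF receptor 2 serine, glutamine, glutamate, glutamate. The Cd40 stretch is chr2:165070770-165070832 on the plus strand and the Tnfrsf1b stretch chr4:145215901-145215960 on the minus strand, both in GRCm38.
Cd40: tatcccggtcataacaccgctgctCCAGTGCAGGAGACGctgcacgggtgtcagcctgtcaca
Tnfrsf1b: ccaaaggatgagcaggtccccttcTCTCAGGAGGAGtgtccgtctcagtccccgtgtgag
The counts are totals per gene, and do not resolve which isoforms carried these codons.

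Tnf (ENSMUSG00000024401, chromosome 17, 35199381 to 35202007, minus strand), the cytokine itself, was highly expressed in both genotypes and modestly lower in Ifngr1_KO. Its lowest, median and highest levels were 757, 1148 and 1484 CPM in Ifngr1_KO and 1113, 1616 and 1832 CPM in WT. The genotypes overlapped, since 3 of 8 Ifngr1_KO libraries lay below the lowest WT library, but the Ifngr1_KO level was below the WT level of its own mouse in 8 of 8 mice. The log2 fold change was -0.42 (SE 0.08, 95% interval -0.60 to -0.24, edgeR adjusted p = 0.0198), or 74.7% of WT (65.9 to 84.7%). By mouse, Ifngr1_KO held between 65.6% of the WT level in mouse 6 and 85.6% in mouse 2.

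Tnf was called in 6 of 16 alternative fits and kept its direction in all 16. Without the mouse block the log2 fold change was the same to 2 decimals, -0.42, and the gene was not called (edgeR adjusted p = 0.165). With 1 mouse left out the difference stayed between -0.44 and -0.39, and the call was lost without mouse 3, 4, 5, 6, 8 or 9 (adjusted p = 0.0508 to 0.0764) and kept without mouse 2 (0.0404) or mouse 7 (0.00537). With scaling by library totals alone, which moved the median of all tested genes up by 0.11, it was -0.31 (adjusted p = 0.0873), and with the mitochondrial covariate -0.33 (adjusted p = 0.583). DESeq2 (-0.41, adjusted p = 1.1e-05) and limma-voom with library weights (-0.39, adjusted p = 0.00258) called it. The share of all tested genes called lower was 2.19% with no mouse block, 1.66% with library totals, 0.784% with no filter, 0.66% with the covariate, 2.28% with DESeq2's size factors, 2.25% with a filter at 10 counts in 8 libraries and 4.31% with limma-voom. Library totals also shifted the split of calls over all genes, to 164 lower and 102 higher, against 229 lower and 47 higher with trimmed-mean scaling. With a mouse left out the share called lower was 1.91% without mouse 2, 1.45% without 3, 1.63% without 4, 1.85% without 5, 1.47% without 6, 3.34% without 7, 1.46% without 8 and 1.54% without 9.

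Both neighbours of Tnf in the TNF locus were called, in opposite directions. Lta, which encodes lymphotoxin alpha and lies upstream of Tnf on the same strand (chromosome 17, 35203165 to 35205351), had 1.53, 4.87 and 7.18 CPM as its lowest, median and highest level in Ifngr1_KO and 11.7, 16.4 and 19.2 CPM in WT. No Ifngr1_KO library reached the lowest WT library. Its log2 fold change was -1.84 (SE 0.27, adjusted p = 0.00315), and the call was lost only with the mitochondrial covariate among 16 alternatives (-1.31, adjusted p = 0.344). Ltb, which encodes lymphotoxin beta on the other strand (35194439 to 35196320), had 131, 1352 and 1795 CPM in Ifngr1_KO and 38.3, 868 and 1245 CPM in WT as its lowest, median and highest level. It was higher in Ifngr1_KO in 8 of 8 mice, as were 2.76% of all tested genes (log2 fold change 0.80, SE 0.18, adjusted p = 0.0413), with overlapping genotypes. Ltb was not called without the mouse block (0.60, adjusted p = 0.682), without mouse 3, 4, 5, 6, 8 or 9 (0.66 to 0.88, adjusted p = 0.0630 to 0.105), without a filter (adjusted p = 0.0611) or with the mitochondrial covariate (adjusted p = 0.607). No annotated exon of another gene overlaps the exons of Tnf.

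The 250 bases before the RefSeq start of Tnf (chr17:35202008-35202257, minus strand, RefSeq table of GRCm38.p6) and of Tnfrsf1b (chr4:145246871-145247120, minus strand) are shown as those of the called cytokine gene and of the receptor gene that held a match. The window of Tnfrsf1a, which was also lower in every mouse, held none of the motifs below and is not printed. All windows were searched on both strands for an ISRE core bound by interferon regulatory factors (GAAA, any 2 bases, GAAA), the NF-kB consensus and the TATA box (TATAAA), and capitals mark the matches, written as they stand on the gene's strand.
Tnf: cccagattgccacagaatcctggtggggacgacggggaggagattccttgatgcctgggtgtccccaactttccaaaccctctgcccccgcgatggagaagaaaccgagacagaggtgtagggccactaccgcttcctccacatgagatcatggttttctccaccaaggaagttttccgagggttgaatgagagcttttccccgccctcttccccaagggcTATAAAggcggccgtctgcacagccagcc
Tnfrsf1b: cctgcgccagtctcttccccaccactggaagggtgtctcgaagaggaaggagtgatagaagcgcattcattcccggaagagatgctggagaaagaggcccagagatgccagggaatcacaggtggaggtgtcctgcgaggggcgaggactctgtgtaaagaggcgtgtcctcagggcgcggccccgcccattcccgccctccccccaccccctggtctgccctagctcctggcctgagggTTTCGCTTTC
The table held such a window for 8 members, all but Cd40 and Tradd. The ISRE core was found in Tnfrsf1b alone among the 8, in the last 10 bases, where 2.98% of 32851 windows hold one. The NF-kB consensus was found in Traf3 alone (7.25%) and the TATA box in Tnf alone (12.4%). A match describes these letters and does not show that a factor binds there.

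The TNF receptor genes were high in both genotypes, lower in Ifngr1_KO in 8 of 8 mice, and not called. Tnfrsf1a (ENSMUSG00000030341, chromosome 6, 125349362 to 125362484) encodes TNF receptor 1, the death domain receptor. Its lowest, median and highest levels were 223, 589 and 826 CPM in Ifngr1_KO and 595, 799.8 and 1029.7 CPM in WT. Of the 8 Ifngr1_KO libraries 4 lay below all WT libraries. The log2 fold change was -0.54 (SE 0.19, 95% interval -0.95 to -0.13, edgeR adjusted p = 0.176).

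Tnfrsf1b (ENSMUSG00000028599, chromosome 4, 145213463 to 145246870) encodes TNF receptor 2, which signals through TRAF2. It had 335, 1727 and 2723 CPM in Ifngr1_KO and 1959.9, 2579 and 3406 CPM in WT, again as the lowest, median and highest level. Of the 8 Ifngr1_KO libraries 6 lay below all WT libraries. The log2 fold change was -0.77 (SE 0.26, 95% interval -1.34 to -0.20, edgeR adjusted p = 0.161), or 58.7% of WT (39.6 to 87.1%).

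For both receptor genes 1 library moved the size and the error of the difference. The Ifngr1_KO library of mouse 7 was the lowest for both, at 223 CPM of Tnfrsf1a and 335 CPM of Tnfrsf1b, which was 28.1% and 15.0% of the WT level in that mouse. In the other mice Ifngr1_KO held 57.4 to 98.5% of the WT level of Tnfrsf1a and 48.5 to 89.4% of that of Tnfrsf1b. Without mouse 7 the log2 fold change of Tnfrsf1b was smaller, -0.52 (SE 0.12), and it was called (edgeR adjusted p = 0.0413), when 3.34% of all tested genes were called lower. That of Tnfrsf1a without mouse 7 was -0.36 (adjusted p = 0.0977). Tnfrsf1b was also called by DESeq2 (-0.76, adjusted p = 0.0366) and by limma-voom with library weights (-0.61, adjusted p = 0.0329), and Tnfrsf1a by neither (adjusted p = 0.0672 and 0.0640). With the mitochondrial covariate the differences were -0.25 for Tnfrsf1b and -0.27 for Tnfrsf1a, with adjusted p = 1.00 and 0.996.

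**Figure D2:**
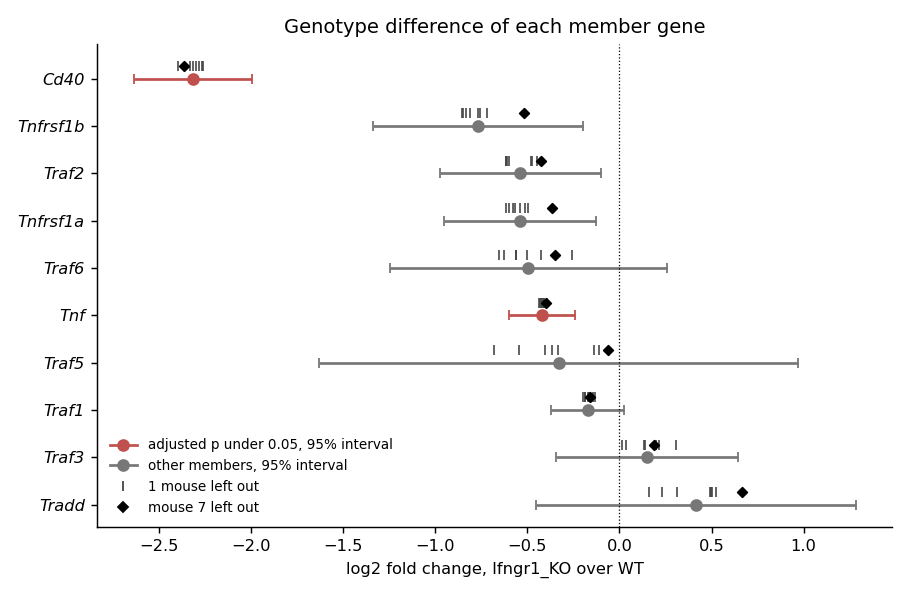
Log2 fold change of Ifngr1_KO over WT for each member gene (x axis), with its 95% interval. Red marks an adjusted p under 0.05, ticks above each point are the fits with 1 mouse left out, and diamonds the fit without mouse 7. Cd40 lies at -2.32 and away from the rest, and the estimate for Tnfrsf1b is -0.77 with all mice and -0.52 without mouse 7.

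TRAF2 is the adapter shared by both TNF receptors and CD40. Traf2 (chromosome 2, 25517982 to 25546940) had a lowest, median and highest level of 29.3, 58.1 and 86.0 CPM in Ifngr1_KO and 60.5, 83.3 and 100.01 CPM in WT. It was lower in 6 of 8 mice, and 4 Ifngr1_KO libraries lay below all WT libraries. In mice 2 and 4 the Ifngr1_KO level was slightly above that of WT, at 106% and 104%. The log2 fold change of -0.54 (SE 0.20, 95% interval -0.98 to -0.10) was not called (edgeR adjusted p = 0.203), nor was it in any of 16 alternative fits, where it ran from -0.62 to -0.13.

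Traf1 (chromosome 2, 34941750 to 34961772), an adapter that pairs with TRAF2 and is itself an NF-kB target, was the most abundant TRAF gene per length. It had 373, 511 and 700.2 CPM in Ifngr1_KO and 365, 628 and 755 CPM in WT as lowest, median and highest level. The genotypes overlapped over nearly their whole range. Its log2 fold change was -0.17 with a 95% interval of -0.37 to 0.02 (edgeR adjusted p = 0.367). That interval does not reach the value of -2.32 for Cd40, but it overlaps the interval of Tnf, -0.60 to -0.24. Differences between genes were not tested.

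TRAF3 restrains the alternative NF-kB pathway until CD40 engagement leads to its degradation. Traf3 (chromosome 12, 111166370 to 111267153) had 36.6, 53.8 and 66.4 CPM in Ifngr1_KO and 29.1, 46.2 and 73.1 CPM in WT. It was higher in Ifngr1_KO in 4 mice and lower in 4, with a log2 fold change of 0.15 (95% interval -0.35 to 0.65, edgeR adjusted p = 0.782). TRAF6 links CD40, and more widely the Toll-like and interleukin 1 receptors, to NF-kB. Traf6 (chromosome 2, 101678429 to 101701669) had 1.70, 10.05 and 30.2 CPM in Ifngr1_KO and 4.94, 11.7 and 23.5 CPM in WT. The spread within each genotype was wide, with coefficients of variation of 79.1% in Ifngr1_KO and 54.8% in WT, and the log2 fold change of -0.49 had a 95% interval of -1.25 to 0.26 (edgeR adjusted p = 0.506). With 1 mouse left out the Traf6 value ran between -0.65 without mouse 4 and -0.26 without mouse 5, with no call. That of Traf3 ran between 0.01 without mouse 2 and 0.31 without mouse 8, with no call. Traf3 was 0.70 with the mitochondrial covariate, the largest value of its alternative fits, and not called (edgeR adjusted p = 0.676).

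TRAF5, a relative of TRAF2 that also binds CD40, was close to the limit of these libraries. Traf5 (chromosome 1, 191997205 to 192092559) ran up to 7.72 CPM in Ifngr1_KO and 7.08 CPM in WT, with medians of 2.24 and 2.26 CPM. Mouse 5 gave 0 counts in both libraries, which allows up to 0.240 CPM in Ifngr1_KO and 0.157 CPM in WT (3 counts, counting error only). Its log2 fold change of -0.33 had a 95% interval of -1.63 to 0.97, and it ran between -0.68 without mouse 2 and -0.063 without mouse 7. The mean CPM hardly differed (3.09 ± 2.88 in Ifngr1_KO and 3.06 ± 2.34 in WT). An antisense gene overlaps 4.49% of its exons and the libraries do not mark strand, but that gene held 17 counts over all libraries against 733 for Traf5.

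Tradd (chromosome 8, 105258286 to 105264609), the death domain adapter of TNF receptor 1, had 4.02, 24.4 and 35.2 CPM in Ifngr1_KO and 0.627, 24.1 and 33.6 CPM in WT. It was higher in Ifngr1_KO in 4 mice and lower in 4, with a log2 fold change of 0.42 (95% interval -0.45 to 1.29, edgeR adjusted p = 0.632). The value was 0.16 without mouse 9, 0.66 without mouse 7, 0.089 without the mouse block and 0.81 with the mitochondrial covariate. Tradd was called in none of these fits. Mice 5 and 9 were low in both libraries, at 4.40 and 4.02 CPM in Ifngr1_KO and 2.09 and 0.627 CPM in WT.

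Levels of different genes were set side by side per kilobase of merged exons, scaled to a sum of 1000000 in each library. On this scale Tnf was the highest member in both genotypes, at 1379.8 ± 378 in Ifngr1_KO and 1861 ± 319.5 in WT (SD, n = 8), and stood at the 98.9th percentile of all tested genes over all libraries. Tnfrsf1b followed with 899 ± 375 in Ifngr1_KO and 1389.9 ± 251 in WT, then Tnfrsf1a with 445 ± 143 and 625 ± 96.3. Traf1 held 119 ± 26.4 in Ifngr1_KO and 137 ± 23.8 in WT, and the remaining adapters lay lower, down to Traf5 at 1.44 ± 1.48 and 1.35 ± 0.997. In Ifngr1_KO the bands of mean ± SD of neighbours in the order overlapped, so that their ranks are not separated, except between Tnfrsf1a and Traf1, between Traf1 and Traf2 and between Cd40 and Traf6. In WT the bands overlapped between Tnf and Tnfrsf1b, between Cd40 and Traf2, between Traf2 and Tradd, between Tradd and Traf3, and between Traf6 and Traf5.

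The place of Cd40 in this order differed between genotypes. At 10.6 ± 4.76 per length in Ifngr1_KO it had rank 8 of the 10, below Traf3 at 14.1 ± 4.89, with overlapping bands. At 53.4 ± 17.5 in WT it had rank 5, above Traf2 at 32.1 ± 5.39. The ratio of Tnfrsf1b to Tnfrsf1a per length was 1.93 ± 0.53 in Ifngr1_KO and 2.23 ± 0.25 in WT (SD, n = 8), and was higher in Ifngr1_KO in 3 of 8 mice. Both the lowest ratio, 1.02 in mouse 7, and the highest, 2.83 in mouse 4, came from Ifngr1_KO libraries.

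**Figure D3:**
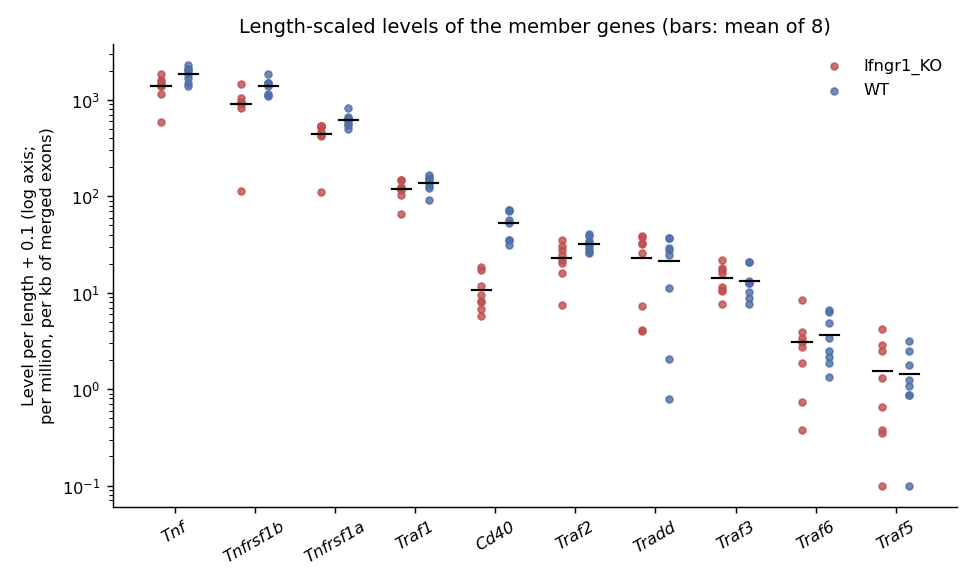
Length-scaled level of each member gene (y axis, log scale, counts per kilobase of merged exons scaled to the same sum per library, with 0.1 added) in the 8 Ifngr1_KO and 8 WT libraries, in the order of the WT means. Horizontal bars are means of 8. Tnf, Tnfrsf1b and Tnfrsf1a stand highest, and Cd40 has rank 8 in Ifngr1_KO at 10.6 and rank 5 in WT at 53.4.

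The 5 tested genes whose log2 CPM followed that of Cd40 most closely over the 16 libraries, taken from 5161 genes averaging log2 CPM 3 or more, were Noc4l, H2-T23, Psmb8, Tapbpl and Psmb9. Psmb8 and Psmb9 are subunits of the immunoproteasome, Tapbpl edits peptides on MHC class I, H2-T23 is a nonclassical class I molecule, and Noc4l is a nucleolar protein of ribosome assembly. Their likeness, as Pearson's r over 16 libraries, was 0.96 for Noc4l and 0.94 to 0.95 for the others. Both genotypes are in this number, and Cd40 falls into 2 separate groups by genotype. Within the 8 WT libraries alone r was 0.84 to 0.91 for these 5 genes, and within the 8 Ifngr1_KO libraries 0.40 to 0.67. These libraries were among the 16 by which the genes were chosen, so the values within a genotype are a description too. Since Cd40 separates the genotypes fully, choosing genes by this likeness also fixes that they differ by genotype, so their differences are a description: the log2 fold changes were -2.24 for Noc4l, -1.11 for H2-T23, -1.58 for Psmb8, -2.32 for Tapbpl and -1.85 for Psmb9.

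Around the 10 members, 9 lists of other pathway genes held 120 genes, of which 87 were tested. Of these 4 were called lower (Lta, Trafd1, Nfkbie and Nfkbib) and 1 higher (Ltb), and 82 were not called, beside shares of 2.32% lower and 0.477% higher over all tested genes. The median log2 fold change of the 87 was -0.06, against 0.046 for all tested genes. An unadjusted p under 0.05 was found for 22 of the 87, and for 16.3% of all tested genes, against which the counts of such p in each list below are to be read.

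Among 17 other ligands of the TNF superfamily 6 were tested, with Lta called lower and Ltb higher, and a median of -0.68. The gene of CD40 ligand, Cd40lg, had no counts in any library. Of 25 other receptors 13 were tested and 0 were called, although 2 had an unadjusted p under 0.05, with a median of 0.30. The death receptor gene Fas averaged 291 ± 38.2 CPM in Ifngr1_KO and 299 ± 43.6 CPM in WT (95% interval of the log2 fold change -0.26 to 0.19). Relt, another receptor of the family, had 383 ± 95.7 CPM in Ifngr1_KO and 307 ± 61.8 CPM in WT, a log2 fold change of 0.30 (95% interval -0.09 to 0.70). It was higher in Ifngr1_KO in 7 of 8 mice, all but mouse 7, and without mouse 7 the log2 fold change was 0.46 (edgeR adjusted p = 0.0607).

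Of 10 other TRAF family genes and TRAF partners 6 were tested and 1 was called. Trafd1, which encodes a TRAF-type zinc finger protein known as a feedback inhibitor of innate signalling, fell to 384 ± 92.1 CPM in Ifngr1_KO, against 543 ± 129.6 CPM in WT (log2 fold change -0.50, edgeR adjusted p = 0.0290), and was lower in 8 of 8 mice. It was not called without the mouse block (-0.50, adjusted p = 0.145), with library totals (adjusted p = 0.0759), with no filter (0.0776), with the mitochondrial covariate (0.636) or without any 1 of mice 2, 3, 4, 5, 6 and 8 (0.0557 to 0.118). The list had a median of -0.23 and all 6 tested genes had a negative log2 fold change, as had 4611 of all 9851 tested genes.

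In the TNF receptor 1 complex, with its ubiquitin ligases, deubiquitinases and kinases, 0 of 17 tested genes were called, with a median of -0.17, and 4 had an unadjusted p under 0.05. Its most abundant members per length were Tnip1 and Tnfaip3, both brakes on NF-kB. Tnip1 averaged 452 ± 155 CPM in Ifngr1_KO and 654 ± 96.6 CPM in WT and was lower in 8 of 8 mice (log2 fold change -0.62, edgeR adjusted p = 0.136). It was called by DESeq2 (adjusted p = 0.0336) and limma-voom (adjusted p = 0.0411). Tnfaip3 had 312 ± 185 CPM in Ifngr1_KO and 346 ± 143 CPM in WT. In the death arm 0 of 4 tested genes were called, with a median of -0.60, and 3 had an unadjusted p under 0.05. Cflar, the inhibitor of caspase 8 activation, had 145 ± 44.1 CPM in Ifngr1_KO and 186 ± 16.4 CPM in WT, and 7 of 8 Ifngr1_KO libraries lay below all WT libraries (log2 fold change -0.40, edgeR adjusted p = 0.178). Without mouse 7, whose Ifngr1_KO library was the highest at 251 CPM, it was -0.53 and called (adjusted p = 0.00491). Casp8 had 39.0 ± 15.5 CPM in Ifngr1_KO and 49.7 ± 8.43 CPM in WT (edgeR adjusted p = 0.329).

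Among NF-kB subunits and inhibitors all 12 were tested, 2 were called lower and the median was -0.02. The 2 were inhibitor genes: Nfkbie had 277 ± 84.6 CPM in Ifngr1_KO and 436 ± 135 CPM in WT, and Nfkbib 127 ± 21.5 and 205 ± 45.3 CPM, each lower in 8 of 8 mice. Each had a log2 fold change of -0.67, with an SE of 0.12 for Nfkbie and 0.13 for Nfkbib. Nfkbie was not called without the mouse block (adjusted p = 0.145), with library totals (0.0507) or without mouse 3, 6 or 8, nor was Nfkbib without mouse 3, 4, 6, 8 or 9 (edgeR adjusted p = 0.0516 to 0.0706 over these fits), and neither was called with the mitochondrial covariate. In the MAP kinase arm 0 of 11 tested genes were called, with a median of 0.16, and 2 had an unadjusted p under 0.05. Of its most abundant members, Map2k3 had 263 ± 142 CPM in Ifngr1_KO and 225 ± 121 CPM in WT, and Mapkapk2 224 ± 122 and 166 ± 33.5 CPM.

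Genes that release TNF from the membrane or control its mRNA gave 0 calls among 9 tested, with 1 unadjusted p under 0.05 and a median of -0.06. Zfp36, which encodes tristetraprolin and promotes decay of Tnf mRNA, stood at 6614 ± 997 CPM in Ifngr1_KO and 6911 ± 1133 CPM in WT, with a 95% interval of the log2 fold change of -0.24 to 0.12. Rhbdf2, a partner of the TNF-shedding protease ADAM17, had 391 ± 138 CPM in Ifngr1_KO and 496 ± 78.8 CPM in WT (edgeR adjusted p = 0.337). Of the genes that feed TRAF6 from Toll-like and interleukin 1 receptors 0 of 9 were called, with 2 unadjusted p under 0.05 and a median of -0.17. Myd88, the adapter of those receptors, had 896 ± 172 CPM in Ifngr1_KO and 1161 ± 142 CPM in WT and was lower in 8 of 8 mice (log2 fold change -0.39, edgeR adjusted p = 0.143), and Sqstm1, a scaffold that binds TRAF6, had 2491 ± 900.4 and 2865 ± 1022 CPM. Leaving out mouse 7 moved the log2 fold change of several uncalled genes by over 1.5 times, to -0.28 for Casp8, -0.18 for Tnfaip3, -0.24 for Rhbdf2, -0.028 for Sqstm1 and 0.42 for Map2k3, and none of these was called.

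**Figure D4:**
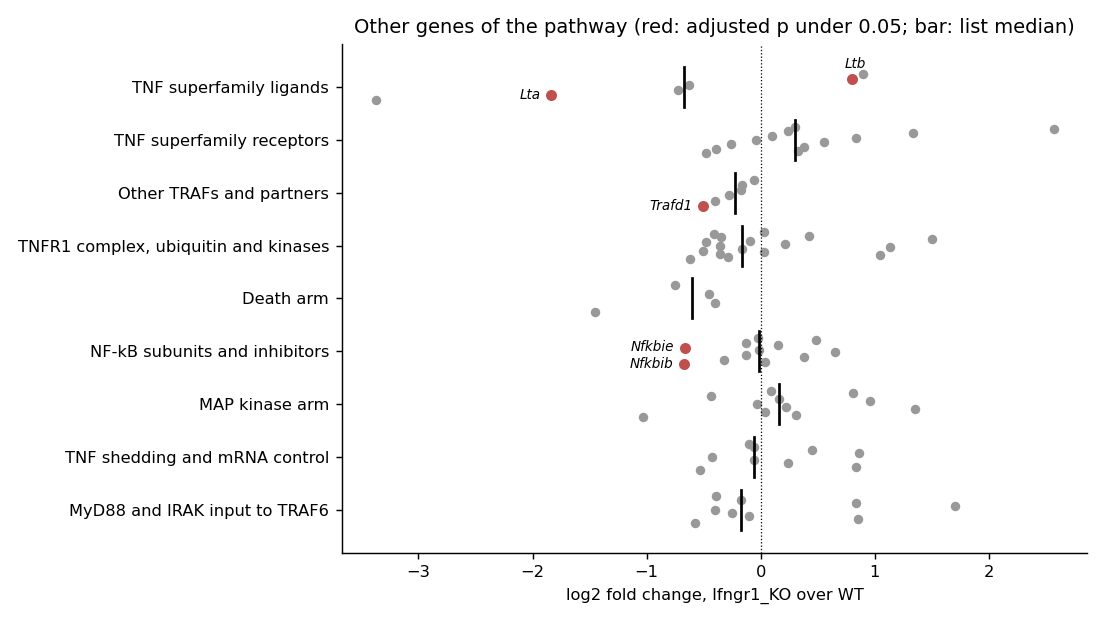
Log2 fold change of Ifngr1_KO over WT (x axis) for the tested genes of 9 pathway lists (rows). Red points with names are genes with an adjusted p under 0.05, grey points the others, and black bars list medians, between -0.68 for the ligands and 0.30 for the receptors.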

How the data were processed

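Values deposited by the authors are expected counts for each Ensembl identifier, given as whole numbers for 16 samples and not scaled. The submitters' processing notes name Salmon 0.14.2, DESeq2 1.22.1 and mm10, and what each was used for is not stated there. Per the labels' protocols, 1 ng of RNA was copied with oligo-dT primers and amplified in 13 cycles, so the counts hold PCR copies and no strand. Gene names, exon lengths and positions came from GENCODE vM21 of the same build.

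Counts were tested in R 4.3.3 with edgeR 4.0.16. The function filterByExpr kept 9851 genes, which held 99.7% of counts. TMM scaling and the quasi-likelihood test followed, with a mouse block and Benjamini-Hochberg adjustment, and the SE was taken from the fold change and its F. The pairs come from the design text, which ties both samples of a number to 1 mouse, and the mean correlation of deviations was 0.138 within mice and -0.0180 between mice. Alternatives were no block, DESeq2 size factors, library totals, 2 other filters, DESeq2 1.42.0, limma-voom 3.58.1 with library weights, the mitochondrial share, and each mouse left out. The code was tested on simulated data, with changed genes drawn at random from all tested genes and no mouse effect. Call rates in the simulation are averages over genes of all levels and need not hold for a single gene. There 2.13% of 47 genes changed 1.5-fold were called, 14.3% of 49 changed 2-fold and 65.3% of 49 changed 4-fold. A gene that was not called is therefore not shown to be unchanged.

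Members, lists and tests were chosen with earlier results of these data known. Named genes were the members, Ifngr1, up to 4 called genes per list (or the 2 most abundant per length where none was called) and the 5 genes most like Cd40. S100a8, S100a9, Ly6g, Mmp8, Mmp9, Adgre1, Ly6c2, Cd79a, Cd83, Tnfsf10 and Tnfrsf9 were named after their values were seen.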

Additional observations from a re-analysis of the deposited data

Results flagged for a closer look

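In 3 of 66 gene and genotype groups, 1 library lay further from the rest than expected in a group of 8, a distance that chance gives in about 1 of 20 groups. Traf6 reached 30.2 CPM in the Ifngr1_KO library of mouse 3, where the next highest Ifngr1_KO library had 14.7 CPM, and without mouse 3 its log2 fold change was -0.63 in place of -0.49, while it was -0.26 without mouse 5 and -0.35 without mouse 7, with no call in any of these fits. Cflar reached 251 CPM in the Ifngr1_KO library of mouse 7, with 149.8 CPM in the next. Mapkapk2 reached 508 CPM in the same library, with 244 CPM in the next, and its log2 fold change was 0.13 without mouse 7 and 0.31 with it, not called either way.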

How the results depend on the processing

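Over 16 alternative fits Cd40 kept its direction and its call. The count of members called lower was 1 in place of 2 with no replicate block, library totals, no filter or the mitochondrial covariate, and 1 to 3 with a mouse left out. It was Tnf that was lost, and Tnfrsf1b that was gained without mouse 7. Of the other pathway genes 4 were called lower; 8 were with DESeq2, 7 with limma-voom, 2 with library totals, 0 with the covariate, and 1 to 6 with a mouse left out. The count called higher was 1; it was 4 with DESeq2, 2 with limma-voom, 0 with no replicate block, no filter or the covariate, and 0 to 2 with a mouse left out. Direction reversed, without a call on either side, for Traf5 (0.41 with limma-voom, 0.43 with the covariate, 0.017 with no replicate block), for Traf6 (0.21), Tnfaip3 (0.33) and Mapkapk2 (-0.16) with the covariate, and for Fas (0.074) and Zfp36 (0.050) with library totals. The mitochondrial share was higher in Ifngr1_KO by 0.793 percentage points and by 0.628 to 0.940 with a mouse left out, and the total count differed by -3.06 M (-3.57 to -2.35). The cause of these shifts was not tested, though each fit without a mouse has 7 pairs. Traf5, Traf6 and Tradd had 0 to 523 counts a library and varied widely between mice, and which of these limits their precision was not tested.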

Other observations

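Outside the 10 members, 2 genes of the TNF superfamily with low counts had larger fold changes than Cd40 or close to it without being called, and are named here after their values were seen. Tnfsf10, which encodes the death ligand TRAIL, had 1.40 ± 1.51 CPM in Ifngr1_KO and 8.81 ± 5.84 CPM in WT (log2 fold change -3.37, SE 0.90, edgeR adjusted p = 0.0802). Tnfrsf9, which encodes the costimulatory receptor 4-1BB, had 4.40 to 10.9 CPM in Ifngr1_KO and 0 to 3.73 CPM in WT (log2 fold change 2.57, SE 0.68, edgeR adjusted p = 0.0776).

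Mice 5 and 9 were low for Tradd, Ltb and Map2k3 in both genotypes. Ltb had 305 and 131 CPM in the Ifngr1_KO libraries of mice 5 and 9 and 139.9 and 38.3 CPM in their WT libraries, where the other 6 mice had at least 945 CPM in Ifngr1_KO and 589 CPM in WT. For Tradd the Ifngr1_KO libraries of the 2 mice were the lowest of 8, and so were the WT libraries. Map2k3 had 93.9 and 49.0 CPM in the Ifngr1_KO libraries of mice 5 and 9 and 77.6 and 41.6 CPM in their WT libraries. How many of all tested genes share this pattern was not counted.

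The Ifngr1_KO library of mouse 7 was the lowest of its genotype for 5 of 10 members (Tnf, Tnfrsf1a, Tnfrsf1b, Traf2 and Traf6), as it was for 25.2% of all tested genes.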
